A study of Mus musculus with 6 samples.

Results

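The genes described here encode the receptors for lysophosphatidic acid (LPA) and sphingosine-1-phosphate (S1P) in mouse dorsal root ganglia (DRGs). They are the 10 rows, of 47937 in the table of read counts, whose Ensembl gene identifiers map to Lpar1 to Lpar6, S1pr1, S1pr2, S1pr3 and S1pr5, that is, 6 LPA and 4 S1P receptor genes. The remaining S1P receptor gene, S1pr4, was counted with the other lysophospholipid receptors below. Bulk RNA came from cervical, thoracic and lumbar DRGs of C57BL/6 mice of about 2 months, with 3 control libraries and 3 Tlx3cko libraries. The control genotype is given as wild type in the labels, whereas the study's methods speak of control mice and name Tlx3 F/F littermates as controls for the behavioural tests. The Tlx3cko genotype is given as Tlx3f/f;SNS-cre. In this line the Nav1.8 promoter drives Cre from late embryonic life, so that Tlx3, a homeobox transcription factor, is deleted in Nav1.8+ neurons, mostly nociceptors, and stays intact in the other cells of the ganglion. The comparison asks which receptors for itch-inducing and pain-inducing lipids change their expression when Tlx3 is lost from these neurons.

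LPA and S1P are small signalling lipids that act outside the cell on G protein-coupled receptors. LPA is made mainly by autotaxin (Enpp2) from lysophosphatidylcholine, and S1P is made inside cells by the sphingosine kinases and then exported. Through Gq and Gi proteins their receptors engage phospholipase C beta and adenylyl cyclase. In sensory ganglia LPA is known as a mediator of cholestatic itch and of neuropathic pain, S1P is known to act on nociceptors through S1pr3, and Lpar3 and Lpar5 are known as genes of the nonpeptidergic MrgprD class of neurons, called NP1 below.

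The libraries held 11458299 to 18775628 counts, and the effective library sizes after TMM normalization differed from the totals by factors of 0.994 to 1.01. Values are given as normalized counts, for which the counts were brought to a common effective library size, and levels of different genes are compared only per kilobase of annotated exon. Tlx3 itself had 1828, 2262 and 2433 counts in control replicates 1 to 3 and 1717, 1052 and 1475 counts in Tlx3cko replicates 1 to 3. This was a change of -0.46 on the log2 scale (standard error, SE, 0.09, adjusted p = 0.0122 in edgeR's quasi-likelihood test), and the call was lost when control replicate 2 (adjusted p = 0.0606), Tlx3cko replicate 2 (0.091) or Tlx3cko replicate 3 (0.0706) was left out, and with control replicate 3 as the only control (0.175). Xist was counted 591 and 493 times in control replicates 1 and 2, where the Y-linked Ddx3y was at 0, while the other 4 libraries had 0 to 2 Xist counts and 273 to 525 Ddx3y counts, an imbalance of sex between the genotypes. Each fit was therefore also run with control replicate 3 alone as the control. The tissue held its neuronal and glial markers, with 20782 to 27386 counts on the neurofilament gene Nefh and 27830 to 42294 counts on the glial gene Apoe in the control libraries.

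Of the 10 receptor genes, 2 were lower in Tlx3cko DRGs and 0 were higher at an adjusted p under 0.05, where 4.25% of the 20006 genes tested passed in either direction, 2.56% lower and 1.69% higher. The genes that fell were Lpar3, to 26.7% of its control mean, and Lpar5, to 14.3% of its control mean. The study itself named both from these libraries, so their fall here is not independent evidence. All 10 genes reached the minimum of 10 counts over the 6 libraries, but Lpar2, Lpar4, Lpar6 and S1pr5 were sparse. The median log2 fold change was -0.97 over the 6 LPA receptor genes and -0.19 over the 4 S1P receptor genes, beside -0.0036 over all genes tested. In 4 of the 10 genes, namely Lpar3, Lpar4, Lpar5 and S1pr2, every Tlx3cko library was below every control library, a pattern seen in 10.8% of all genes tested.

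**Figure D1:**
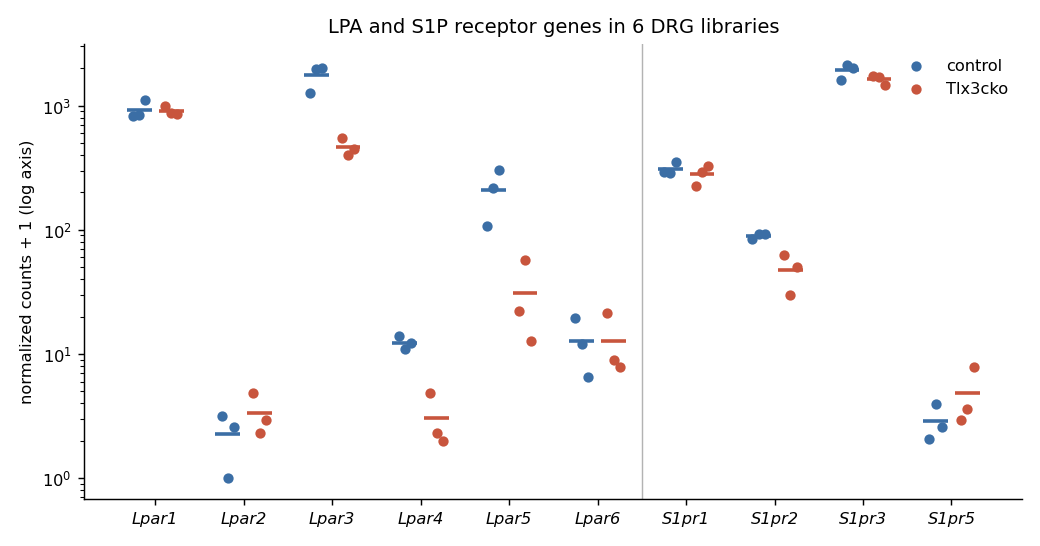
Normalized counts plus 1 (log axis) of the 10 receptor genes in each of the 3 control and 3 Tlx3cko libraries. Points are libraries and bars are group means. The groups are separate for Lpar3, Lpar4, Lpar5 and S1pr2 and overlap for the other 6 genes.

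The promoters of the genes that fell are shown because the deleted factor is a DNA-binding protein, and each window runs from 250 bases before to 50 bases after the RefSeq start on GRCm38.p6. Lpar3 has 1 such window and Lpar5 has 2, all on the plus strand. Capitals mark TGTGGT, the core recognised by Runx factors, or TAAT, the core recognised by many homeodomain proteins, each on either strand (ACCACA and ATTA on the other).
Lpar3, chr3:146220711-146221010: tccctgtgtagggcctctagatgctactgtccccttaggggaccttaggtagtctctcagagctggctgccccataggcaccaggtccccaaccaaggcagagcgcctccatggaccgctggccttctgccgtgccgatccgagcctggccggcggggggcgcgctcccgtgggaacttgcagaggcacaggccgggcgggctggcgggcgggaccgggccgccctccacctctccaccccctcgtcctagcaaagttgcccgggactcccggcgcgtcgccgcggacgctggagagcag
Lpar5 upstream start, chr6:125067670-125067969: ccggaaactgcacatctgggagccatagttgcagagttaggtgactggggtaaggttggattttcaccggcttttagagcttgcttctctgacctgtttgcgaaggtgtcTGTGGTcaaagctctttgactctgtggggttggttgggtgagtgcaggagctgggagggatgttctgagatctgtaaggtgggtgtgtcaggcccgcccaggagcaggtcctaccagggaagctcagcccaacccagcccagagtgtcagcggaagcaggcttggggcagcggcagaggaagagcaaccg
Lpar5 downstream start, chr6:125071085-125071384: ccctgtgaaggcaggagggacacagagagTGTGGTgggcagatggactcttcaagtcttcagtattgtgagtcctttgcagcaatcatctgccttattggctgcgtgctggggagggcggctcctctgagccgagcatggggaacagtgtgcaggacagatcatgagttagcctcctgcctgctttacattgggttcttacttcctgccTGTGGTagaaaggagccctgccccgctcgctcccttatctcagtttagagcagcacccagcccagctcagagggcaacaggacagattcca
None of these windows held TAAT, which was present in 58% of 32851 RefSeq windows of 300 bases. TGTGGT was absent from the Lpar3 window, occurred once in the upstream and at 2 places in the downstream Lpar5 window, and was present in 16.8% of all windows. The Lpar3 window was rich in G and C, at 70.3% against a median of 52.7% over all windows, and held 25 CpG pairs against a median of 7. The Lpar5 windows had 57.3% and 56% G and C with 7 and 5 CpG pairs. Such traits also occurred in members that were not called. An Lpar1 window had 71.7% G and C with 37 CpG pairs, and the S1pr5 window had 69.3% with 27. TAAT was absent from the Lpar2 and S1pr5 windows too, and TGTGGT was present in the Lpar2 window and in another Lpar1 window. These letter matches describe the windows only. No site specific to Tlx3 was searched for, so its binding to these windows was not tested.

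Lpar1, Lpar2 and Lpar3 belong to the receptor group first known as Edg receptors. Lpar3 (ENSMUSG00000036832, GRCm38 chromosome 3, 146220963 to 146286186, plus strand), a Gq- and Gi-coupled receptor, had 1175, 1959 and 2537 counts in control replicates 1 to 3 and 572, 307 and 452 counts in Tlx3cko replicates 1 to 3. As normalized counts these were 1268, 1954 and 2024 in control and 550.5, 402.8 and 444.8 in Tlx3cko libraries. Control replicate 1 was the lowest control and still stood at more than all Tlx3cko libraries, among which replicate 2 was the lowest. The control mean of 1749 ± 417 normalized counts compares with 466.1 ± 76.1 in Tlx3cko DRGs (SD, n = 3 each). On the log2 scale Lpar3 changed by -1.90 (SE 0.17, 95% interval -2.27 to -1.54, edgeR adjusted p = 2.28e-05). The fall was kept in all 15 alternative fits, between -2.12 and -1.79 on the log2 scale, with a highest adjusted p of 0.000402.

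Lpar1 (ENSMUSG00000038668, chromosome 4, 58435255 to 58553898, minus strand), the most broadly expressed LPA receptor and one known in Schwann cells and fibroblasts, did not pass the test. Its normalized counts were 822.5, 842.8 and 1110 in control and 994.2, 875.2 and 849.3 in Tlx3cko libraries. The groups overlapped fully, and control replicate 3 was the highest of the 6. The log2 fold change was -0.03 with a 95% interval of -0.29 to 0.23 (edgeR adjusted p = 0.947), so the interval does not include a change of the size seen for Lpar3. The Schwann cell marker sum ranged over 34397 to 41660 normalized counts in control and 37019 to 41885 in Tlx3cko libraries, with 1 of 5 markers higher (Egr2) and 0 lower. The fibroblast marker sum was 2876 to 3132 in control and 1997 to 2331 in Tlx3cko libraries, with 3 of 4 markers lower (Col1a1, Dcn and Pdgfra). Egr2 and each of the 3 fibroblast markers lost the call in 5 to 7 of the 15 alternative fits. The part of these cells in the Lpar1 value was not tested.

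Lpar2 (ENSMUSG00000031861, chromosome 8, 69822429 to 69831102, plus strand), a receptor known from immune and epithelial cells, was barely detected. It had 2, 0 and 2 counts in control replicates 1 to 3 and 4, 1 and 2 counts in Tlx3cko replicates 1 to 3. With 4 against 7 counts in all, the ratio of Tlx3cko to control was 1.98, and its exact 95% interval of 0.503 to 9.21 covers counting error only. A difference in either direction was not detectable at this depth.

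Lpar4, Lpar5 and Lpar6 belong to a separate branch of LPA receptors, related to the P2Y nucleotide receptors. Lpar5 (ENSMUSG00000067714, chromosome 6, 125067920 to 125082472, plus strand), which couples to Gq and G12/13 and has been linked to LPA-evoked itch, had 99, 216 and 378 counts in control replicates 1 to 3 and 22, 43 and 12 counts in Tlx3cko replicates 1 to 3. As normalized counts these were 106.9, 215.4 and 301.5 in control and 21.2, 56.4 and 11.8 in Tlx3cko libraries. The groups did not overlap, although both were wide, with a coefficient of variation of 46.9% in control and 78.9% in Tlx3cko DRGs. The control mean of 207.9 ± 97.5 normalized counts compares with 29.8 ± 23.5 in Tlx3cko DRGs (SD, n = 3 each). On the log2 scale Lpar5 changed by -2.87 (SE 0.46, 95% interval -3.87 to -1.87, edgeR adjusted p = 0.00268). All 15 alternative fits kept this fall, from -3.64 without Tlx3cko replicate 2 to -2.47 without Tlx3cko replicate 3, and the adjusted p reached at most 0.0200.

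Lpar4 (ENSMUSG00000049929, chromosome X, 106920625 to 106933900, plus strand), known from blood vessels and mesenchymal cells, was sparse. Its counts were 12, 10 and 14 in control replicates 1 to 3 and 4, 1 and 1 in Tlx3cko replicates 1 to 3. Every Tlx3cko library was below every control, and the ratio of summed counts scaled for depth was 0.188 with an exact 95% interval of 0.0648 to 0.451 for counting error. Across all genes the difference of -2.36 on the log2 scale (SE 0.76) missed the threshold, with an unadjusted p of 0.00866 and an edgeR adjusted p of 0.125. Across the alternative fits the adjusted p ranged from 0.0805 to 0.411, and without Tlx3cko replicate 1 the log2 fold change was -3.19. The gene lies on the X chromosome, and its count was 14 in control replicate 3, the control library with Y-linked counts. With that library as the only control the log2 fold change was -2.34. The fibroblast marker sum, given above, was also lower in every Tlx3cko library, and its part in the Lpar4 value was not tested.

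Lpar6 (ENSMUSG00000033446, chromosome 14, 73237895 to 73243294, plus strand), known from hair follicles and endothelium, had 17, 11 and 7 counts in control replicates 1 to 3 and 21, 6 and 7 in Tlx3cko replicates 1 to 3. The groups overlapped, with a ratio of 1.10 and an exact 95% interval of 0.664 to 1.81. This gene is a single exon that lies within Rb1 on the opposite strand, and 7.56% of its exon bases are shared with Rb1 exons. Whether the counting used strand is not given in the sources used here, so reads from both genes in that overlap cannot be told apart.

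S1P receptors showed no call in either direction. S1pr3 (ENSMUSG00000067586, chromosome 13, 51408639 to 51422797, plus strand), which couples to Gi, Gq and G12/13, was the most abundant of them. Its counts were 1495, 2140 and 2529 in control replicates 1 to 3 and 1786, 1305 and 1491 in Tlx3cko replicates 1 to 3. After normalization the means were 1922 ± 273 in control and 1633 ± 143 in Tlx3cko DRGs (SD, n = 3 each), and the ranges overlapped, as control replicate 1, at 1614, lay inside the Tlx3cko range of 1467 to 1719. The log2 fold change was -0.24, with a 95% interval of -0.47 to -0.0035, an unadjusted p of 0.0471 and an edgeR adjusted p of 0.334. The adjusted p stayed between 0.0614 and 0.72 in the alternative fits.

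S1pr1 (ENSMUSG00000045092, chromosome 3, 115710433 to 115715072, minus strand), a Gi-coupled receptor best known from endothelium and lymphocytes, had 271, 285 and 440 counts in control replicates 1 to 3 and 232, 222 and 329 in Tlx3cko replicates 1 to 3. The normalized means of 309.2 ± 36.4 and 279.5 ± 51.3 (SD, n = 3 each) differed by less than the spread between libraries, with a log2 fold change of -0.15 and a 95% interval of -0.49 to 0.19 (edgeR adjusted p = 0.76). Endothelial markers summed to 1149 to 1351 normalized counts in control and 1467 to 1579 in Tlx3cko libraries, with 1 of 8 markers higher (Pecam1, lost in 4 of 15 alternative fits) and 0 lower. The lymphocyte markers were near the floor, with at most 1 count on Cd3g in each library. The part of either cell type in the S1pr1 value was not tested.

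S1pr2 (ENSMUSG00000043895, chromosome 9, 20962361 to 20976781, minus strand), the S1P receptor best known for coupling to G12/13, had 77, 91 and 115 counts in control replicates 1 to 3 and 64, 22 and 50 in Tlx3cko replicates 1 to 3. As normalized counts these were 83.1, 90.8 and 91.7 in control and 61.6, 28.9 and 49.2 in Tlx3cko libraries, without overlap. The controls lay close together, with a coefficient of variation of 5.33%, against 35.5% in Tlx3cko DRGs. The difference of -0.91 on the log2 scale (SE 0.27, 95% interval -1.49 to -0.32) missed the threshold, with an unadjusted p of 0.00526 and an edgeR adjusted p of 0.0909. It passed in 2 of the 15 alternative fits, with an adjusted p of 0.0226 when no gene was filtered for low counts and of 0.0498 without Tlx3cko replicate 1, and without Tlx3cko replicate 2 the adjusted p was 0.276.

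S1pr5 (ENSMUSG00000045087, chromosome 9, 21242912 to 21248443, minus strand), known from oligodendrocytes and natural killer cells, had 1, 3 and 2 counts in control replicates 1 to 3 and 2, 2 and 7 in Tlx3cko replicates 1 to 3. Only Tlx3cko replicate 3 was above a floor of 3 counts in a library. The ratio of 2.07, with an exact 95% interval of 0.702 to 6.82, does not separate the groups. Of the 5 oligodendrocyte markers Opalin, Mog, Olig1 and Olig2 were at 0 to 5 counts in every library, while Aspa had 146, 82 and 225 counts in control replicates 1 to 3 and 151, 137 and 146 in Tlx3cko replicates 1 to 3. The sum of the list was 83.8 to 180.3 normalized counts in control and 147.3 to 181.1 in Tlx3cko libraries, and the part of these cells in the S1pr5 value was not tested.

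**Figure D2:**
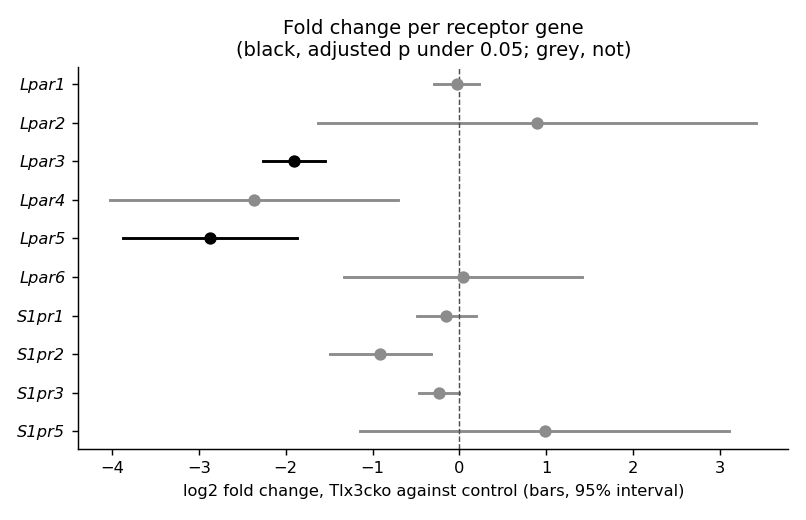
Log2 fold change of each receptor gene in Tlx3cko against control DRGs, with bars for the 95% interval of the edgeR fit. Only Lpar3 and Lpar5, in black, had an adjusted p under 0.05, and the intervals of Lpar2, Lpar4, Lpar6 and S1pr5 are wide because these genes had few counts.

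The order of the receptors differed between the groups. Per kilobase of exon, control DRGs held most Lpar3, at 709.7 ± 169 normalized counts per kilobase (SD, n = 3), followed by S1pr3 at 430.6 ± 61.2 and Lpar1 at 215.7 ± 37.5. Lpar5 came next at 137.3 ± 64.4 and S1pr1 at 101.5 ± 11.9 normalized counts per kilobase, and the library ranges of Lpar1 and Lpar5, and of Lpar5 and S1pr1, overlapped. S1pr2 followed at 11.1 ± 0.59, and Lpar4, Lpar6, S1pr5 and Lpar2 were each at 2.68 normalized counts per kilobase or less. In Tlx3cko DRGs S1pr3 was first, at 365.9 ± 32.1 normalized counts per kilobase, and Lpar1 at 211.3 ± 18.0 and Lpar3 at 189.1 ± 30.9 had overlapping ranges. Lpar5 was at 19.7 ± 15.5, below S1pr1 at 91.7 ± 16.8 normalized counts per kilobase in every library.

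The mix of LPA receptor transcripts shifted accordingly. Lpar3 made up 65.7%, 69.8% and 64.0% of the summed LPA receptor level per kilobase in control replicates 1 to 3 and 47.1%, 40.2% and 46.5% in Tlx3cko replicates 1 to 3. The difference of the means was -21.9 percentage points, and the exact two-sided permutation test gave p = 0.1, the smallest value that 3 against 3 libraries allow. Lpar1 made up 24.5%, 17.3% and 20.2% in control and 48.9%, 50.2% and 51.0% in Tlx3cko libraries, a difference of 29.4 points (exact permutation p = 0.1). The Lpar5 share was 9.0%, 12.5% and 15.5% in control and 2.95%, 9.16% and 2.01% in Tlx3cko libraries, and these ranges overlapped (exact permutation p = 0.2). Lpar1 was thus the larger share in every Tlx3cko library and Lpar3 in every control library. The Lpar1 level itself had a log2 fold change of only -0.03, so its larger share reflects the lower Lpar3 and Lpar5 levels in the same sum. The shares are therefore not a result separate from those 2 falls. The log2 ratio of Lpar3 to Lpar1, on normalized counts plus 1 without division by length, was 0.62, 1.21 and 0.87 in control and -0.85, -1.12 and -0.93 in Tlx3cko libraries.

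The summed LPA receptor level fell to 39.6% of its control mean, from 1068 ± 257 to 423.2 ± 45.4 normalized counts per kilobase (SD, n = 3 each, exact permutation p = 0.1). For the S1P receptors the sum was 544.0 ± 65.5 in control and 465.0 ± 20.1 normalized counts per kilobase in Tlx3cko DRGs, with overlapping libraries (exact permutation p = 0.2). Within the S1P sum S1pr3 made up 77.2% to 81.9% in control and 74.0% to 82.5% in Tlx3cko libraries, and S1pr1 16.0% to 20.5% and 15.7% to 23.9%. These shares overlapped between the groups (exact permutation p = 1 for both genes). S1pr2 was a minor component whose share did not overlap, at 1.95% to 2.23% in control and 0.748% to 1.65% in Tlx3cko libraries (exact permutation p = 0.1).

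**Figure D3:**
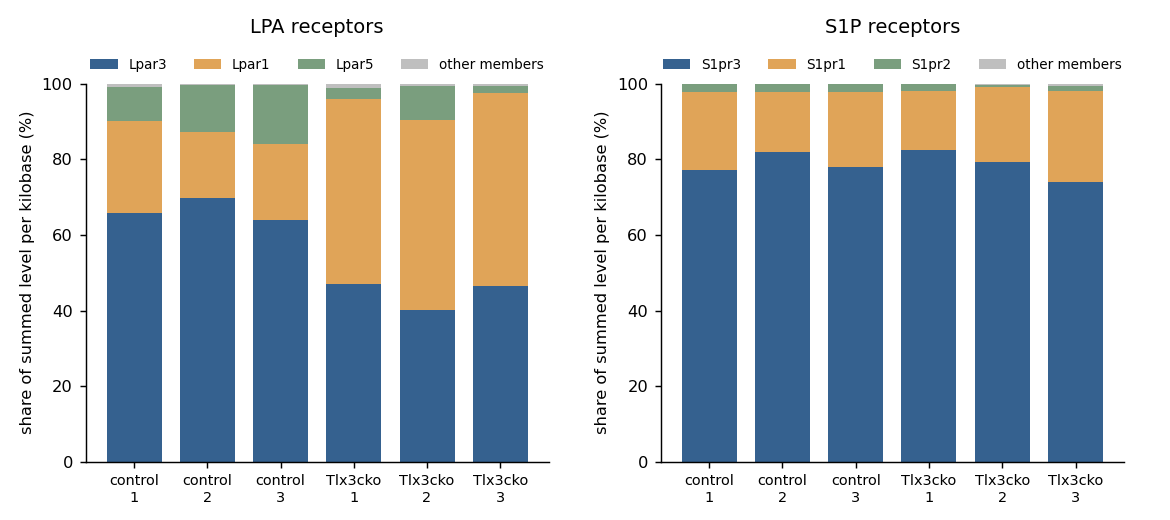
Share (%) of the summed level per kilobase of exon taken by each receptor gene in each library, for the 6 LPA receptor genes and the 4 S1P receptor genes. In the LPA panel Lpar3 falls from 64.0% to 69.8% in control to 40.2% to 47.1% in Tlx3cko libraries, while S1pr3 holds 74.0% to 82.5% of the S1P panel throughout.

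Lpar3 and Lpar5 were next set beside markers of NP1 neurons, since fewer cells of a class and less RNA per cell cannot be told apart in bulk RNA. Of the 7 NP1 markers 6 were lower in Tlx3cko DRGs, 0 were higher, and Gna14 missed the threshold (edgeR adjusted p = 0.0506). Over all genes tested 2.56% were called lower, and the study had already reported the fall of Mrgprd from these libraries. Its discussion also named P2rx3 as strongly down-regulated and, without showing the data, described inhibited differentiation of NP1 neurons. The sum of the list was 22867 to 27085 normalized counts in control and 13111 to 14681 in Tlx3cko libraries. Mrgprd, the beta-alanine receptor gene that names the class, stood at 25.7%, 36.8% and 23.3% of its control mean in Tlx3cko replicates 1 to 3. Lpar3 stood at 31.5%, 23.0% and 25.4% and Lpar5 at 10.2%, 27.1% and 5.68%. Tlx3cko replicate 2 was therefore the highest of the group for Mrgprd and Lpar5 and the lowest for Lpar3. Among the controls, replicate 1 was the lowest for Lpar3, Lpar5, Mrgprd, Gfra2, P2rx3 and Scn11a, at 72.5% of the control mean for Lpar3 and 51.4% for Lpar5.

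Relative to the mean log2 level of the 7 NP1 markers, Lpar3 was at -0.69, -0.25 and -0.25 in control and -0.83, -1.39 and -0.93 in Tlx3cko libraries. The difference was -0.65 on the log2 scale (exact permutation p = 0.1), and it was -0.07 when Mrgprd alone was the reference (exact permutation p = 0.9). Lpar5 differed by -1.69 relative to the list and by -1.10 relative to Mrgprd, with overlapping libraries both times (exact permutation p = 0.2 for each). Lpar3 was thus lower relative to the list in every Tlx3cko library than in every control, but its fall could not be separated from that of Mrgprd. The list members fell unequally. In Tlx3cko libraries Gna14 stood at 79.3% to 83.9% of its control mean and Otoa at 8.08% to 16.7%, below Lpar3 in each. The difference from the list therefore depends on the genes it holds. Whether Lpar5 fell more than Lpar3 was not resolved, as the log2 ratio of Lpar5 to Lpar3 was -3.56, -3.18 and -2.74 in control and -4.64, -2.81 and -5.12 in Tlx3cko libraries (exact permutation p = 0.3).

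**Figure D4:**
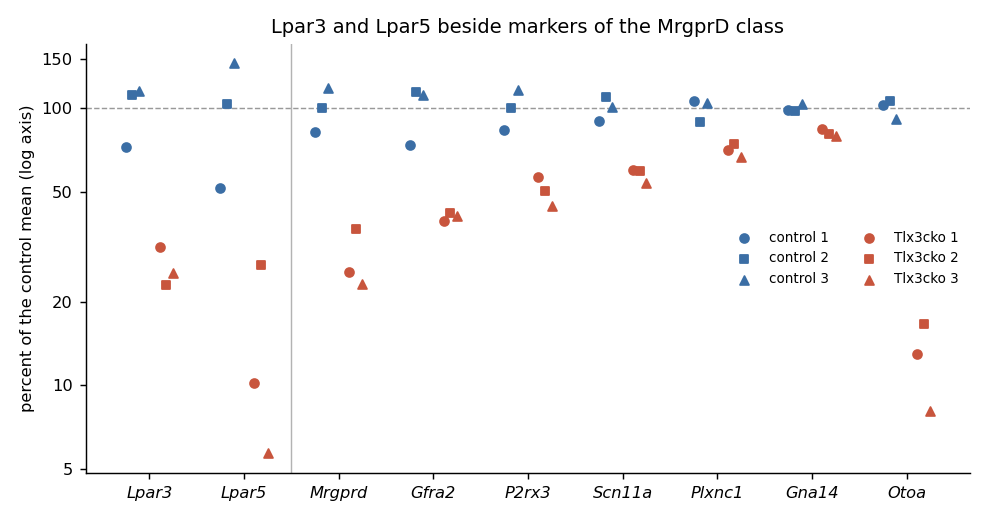
Lpar3, Lpar5 and the 7 NP1 marker genes as percent of each gene's control mean (log axis), 1 point for each of the 6 libraries, with a marker shape for each replicate number. Lpar3 at 23.0% to 31.5% and Mrgprd at 23.3% to 36.8% cover similar ranges in Tlx3cko DRGs, and Gna14 stays nearest to its control mean.

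The genes with the most similar profiles were found by the root mean square distance between centred log2 profiles over the 6 libraries, among the 13369 genes whose mean normalized count reached 50. For Lpar3 these were Lypd6b at a distance of 0.129, the T-type calcium channel gene Cacna1i at 0.136 and A3galt2, which encodes a galactosyltransferase, at 0.163, against a median of 0.987 over all genes compared. Of the NP1 markers Mrgprd ranked 25, Gfra2 ranked 34 and P2rx3 ranked 87, and the others ranked lower. For Lpar5 the nearest were Gm15462 at 0.496, Gm16364 at 0.506 and the histidine ammonia-lyase gene Hal at 0.605, against a median of 1.66. Gm15462 and Gm16364 lie on the strand opposite Lrrc31 and Fyn, so their counts may include reads of those genes. All 6 neighbours were lower in Tlx3cko DRGs, which the way they were chosen largely fixes.

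The markers of other neurons moved in both directions. Over all genes tested 2.56% were called lower and 1.69% higher. The study had already reported the NP2 and NP3 markers called lower here, and Trpv1 of the peptidergic list as higher, from these libraries. It also stated, without showing the data, that differentiation of low-threshold mechanoreceptors with Th was inhibited. The changes of these markers are therefore not independent evidence. Of the NP2 list 2 of 3 markers were lower, of the NP3 list 6 of 7 and of the low-threshold mechanoreceptor (C-LTMR) list 3 of 3, with median log2 fold changes of -3.01, -3.50 and -1.88. The other NP2 marker, Mrgprx1, went the opposite way, with a log2 fold change of 0.95 and no overlap (edgeR adjusted p = 0.0798). Of the peptidergic list 3 of 6 were higher and of the myelinated list 2 of 5, with medians of 0.51 and 0.28, and 0 were called lower in either. Of the peptidergic genes not called, Kit was lower without overlap (log2 fold change -0.36, edgeR adjusted p = 0.0571). Tac1 was higher without overlap (0.55, edgeR adjusted p = 0.0611), and the groups overlapped for Adcyap1. Satellite glia (4 tested), pericytes and smooth muscle (4), macrophages (5), lymphocytes (3), oligodendrocytes (1) and blood (3) had 0 markers past the threshold. All 5 macrophage markers nonetheless had log2 fold changes below 0, with a median of -0.43. Of these 2, Cx3cr1 and Adgre1, were lower without overlap, a pattern seen in 10.8% of all genes tested. The macrophage sum was 566 to 650 normalized counts in control and 510 to 561 in Tlx3cko libraries. Of the skeletal muscle list 1 of 5 was higher (Myh4, lost with DESeq2 and without control replicate 2), with sums of 102 to 1567 normalized counts in control and 1323 to 2785 in Tlx3cko libraries. The part of these cells in the receptor values was not tested.

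Of the 51 genes listed for ligand turnover, related receptors and signalling, 48 could be tested, and 1 was lower and 2 were higher, with a median log2 fold change of -0.04. Over all genes tested 4.25% passed, so nothing particular to these lists is read from their count. Of the LPA making and breakdown list 0 of 8 tested genes passed. Its most abundant members were the lipid phosphatase genes Plpp1 and Plpp3, whose products degrade extracellular LPA. For Plpp1 the mean normalized count was 1135 ± 136 in control and 1448 ± 62.9 in Tlx3cko DRGs (SD, n = 3 each, edgeR adjusted p = 0.065), without overlap, and for Plpp3 it was 780.3 and 751.9 (edgeR adjusted p = 0.904). Of the Plpp1 exon bases 25.8% are shared with Mtrex on the other strand, so the Plpp1 counts may include reads of Mtrex. The autotaxin gene Enpp2, named here as the main source of LPA, had 198, 264 and 380 counts in control replicates 1 to 3 and 237, 123 and 245 in Tlx3cko replicates 1 to 3, with overlap and an edgeR adjusted p of 0.508.

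Of the 12 genes for making, breaking down and transporting S1P, Acer2 was higher and 0 were lower. Acer2 encodes a Golgi ceramidase that yields the sphingosine from which S1P is made. Its normalized counts were 49.7, 18.9 and 28.7 in control and 68.3, 94.5 and 76.8 in Tlx3cko libraries, without overlap. This was a rise of 1.30 on the log2 scale (SE 0.33, edgeR adjusted p = 0.0436), and the call was lost in 6 of 15 alternative fits, namely with control replicate 3 alone and without each library in turn other than control replicate 1, where the adjusted p was 0.0621 to 0.169. The sphingosine kinase genes Sphk1 and Sphk2 had log2 fold changes of 0.21 and 0.05 (edgeR adjusted p = 0.481 and 0.884). Of the Sphk2 exon bases 21.9% are shared with Dbp and Rpl18 on the other strand, so the Sphk2 counts may include their reads.

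Of the other lysophospholipid and related receptors 0 of 9 tested passed. S1pr4, the receptor known from blood cells, had 22, 28 and 26 counts in control replicates 1 to 3 and 19, 2 and 19 in Tlx3cko replicates 1 to 3. Its normalized groups did not overlap, and the log2 fold change of -0.82 had an edgeR adjusted p of 0.569.

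Among 19 G proteins and effectors, 1 was lower and 1 was higher, and both encode phospholipase C beta enzymes, which act downstream of Gq. Plcb3 stood at 12749, 13643 and 12623 normalized counts in the controls and at 8578, 8297 and 7513 in the Tlx3cko libraries, a log2 change of -0.68 (SE 0.07, edgeR adjusted p = 0.000118). The study had already reported the fall of Plcb3 from these libraries, so it is not independent evidence. Plcb1 moved the other way, from 375.6, 320.2 and 394.9 to 751.7, 824.1 and 872.9 normalized counts, a log2 change of 1.17 (SE 0.11, edgeR adjusted p = 5.2e-05). Neither pair of groups overlapped, and both calls were kept in all 15 alternative fits. Per kilobase Plcb3 remained far above Plcb1 in Tlx3cko DRGs, at 1168 against 73.4 normalized counts per kilobase. Plcb2 and Plcb4 did not pass the test, with log2 fold changes of 0.14 and 0.31 (edgeR adjusted p = 0.946 and 0.131), and the Gq gene Gnaq had 5512 and 5104 normalized counts (edgeR adjusted p = 0.624).

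**Figure D5:**
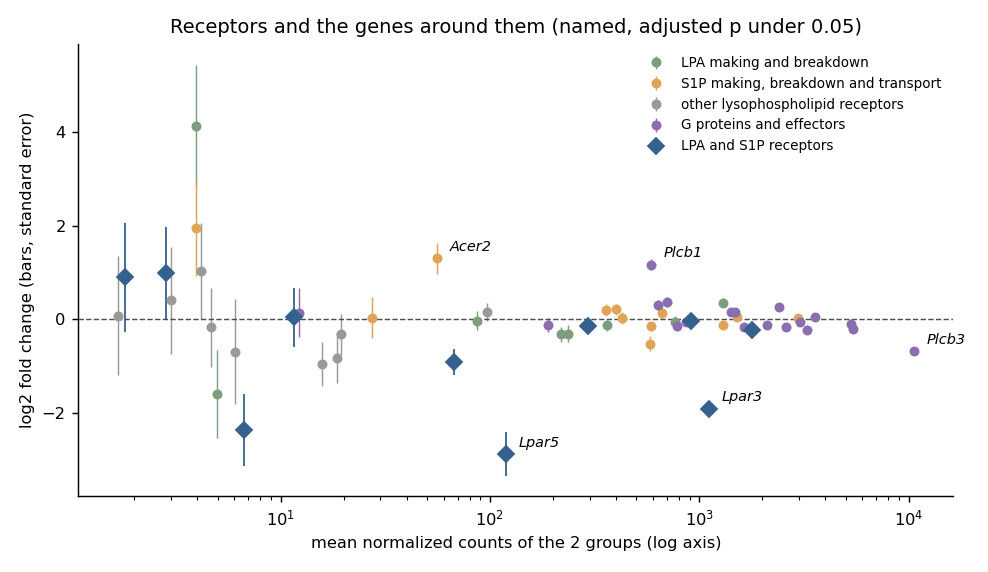
Log2 fold change against mean normalized counts (log axis) for the 10 receptor genes and the 48 tested genes of the 4 pathway lists, with bars for the standard error. The genes named had an adjusted p under 0.05, and Lpar3 and Lpar5 lie lowest among them.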

How the data were processed

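RNA from DRGs of 3 control and 3 Tlx3cko mice was sequenced as paired reads of 150 bases. The authors deposited raw counts of reads per gene, without normalization. The submitters' processing notes name STAR 2.5.2a and mm10, and the counting program and its use of strand are not given in the sources used here. Of 47937 rows, 47310 matched a symbol of GENCODE M21 (GRCm38) and 208 were loci outside the annotation. A filter of 10 counts summed over the 6 libraries left 20006 genes, to which edgeR 4.0.16 (R 4.3.3) was applied with TMM factors and its quasi-likelihood test; calls needed a Benjamini-Hochberg adjusted p below 0.05. The SE is the log2 fold change divided by the root of F. DESeq2 1.42.0, limma-voom (limma 3.58.1), other scalings and filters, a block for the replicate number and the omission of single libraries were alternatives. Near-identical sequence of at least 100 bases and 98% identity was sought with blastn 2.17.0 and found only between Lpar6 and Rb1 (214 bases). Promoters are RefSeq windows.

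Named were all 10 members, Tlx3, Xist, Ddx3y, the called genes of each pathway list or otherwise its 2 most abundant, marker lists by count, and the 3 nearest profiles of each called member. Part of what this rule names is not reported here. Enpp2, Sphk1, Sphk2, S1pr4, Gnaq, Plcb2, Plcb4 and the single markers were named for their roles, after their values were seen. The members and lists were chosen with earlier results of these data known. Replicates of a group differed by more than sampling noise (chi-square per degree of freedom 4.32 to 10.1), and the p-values measure the spread between these 3 libraries per group. Intervals on summed counts cover counting error only. The scripts were tested on simulated data.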

Additional observations from a re-analysis of the deposited data

How the results depend on the processing

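Across 15 alternatives 2 to 3 receptor genes passed, always including Lpar3 and Lpar5, and the third was S1pr2. The number of all genes called was 851, with 1149 by DESeq2, 1529 without a count filter, 553 with control replicate 3 alone (a lone control assumed to vary like the other group) and 488 to 938 with 1 library left out. Of the pathway genes 3 were called, against 7 with DESeq2, 7 without a count filter, 5 with control replicate 3 alone and 2 to 4 with 1 library left out. The sign of values near 0 turned. Leaving out 1 library moved the log2 fold change over -0.11 to 0.12 for Lpar1 and over -0.63 to 0.52 for Lpar6, the difference in share over -1.06 to 3.06 points for S1pr1 and over -2.36 to 1.86 points for S1pr3, and the S1pr3 share differed by 0.43 points without division by exon length. The replicate numbers did not pair the libraries, as same-numbered libraries had correlated deviations of -0.067, -0.014 and -0.058. With the number as a replicate block 770 genes and 2 receptor genes were called, Lpar3 was at -1.89, Lpar5 at -2.85 and Lpar6 at -0.0031 on the log2 scale, and no call of a receptor changed. For Lpar2, Lpar6 and S1pr5 the depth does not allow a difference to be seen or bounded tightly.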
